A study of Mus musculus with 15 samples.

Results

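Collagen-induced arthritis is a mouse model of rheumatoid arthritis, and the comparison described here pooled 11 arthritic tarsal joints of every clinical stage and set them against 3 joints of control animals. The question was which genes were changed in the diseased joint whatever its stage. The members are 14 of the 15 arrays of the series, 1 joint per array: 2 joints of day 0 to 3 of clinical arthritis, 3 of week 1 to 2, 3 of week 3 to 4 and 3 of the declining phase, with the 3 controls. The array of animal 57, of day 0 to 3, is labelled as failing quality control and was left out. All mice were male DBA/1JBom. Arthritis had been induced by 100 µl of chicken type II collagen (2 mg/ml) in complete Freund's adjuvant (0.5 mg/ml), injected into the skin on day 1, with a boost in incomplete adjuvant on day 21. Joints of the first 3 stages had a clinical score of 3 when taken, and those in decline had lost at least 1 point after a long time at score 3, for which the sources give both 2 and 3 weeks. The labels call the controls not induced, while the animal methods speak of a control group given adjuvant without collagen, so whether these 3 animals had adjuvant is not settled. Skin, fur and visible muscle had been removed and all other soft tissue kept, so each sample holds bone, marrow, cartilage, synovium, tendon and what remained of muscle, fat and skin.

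In arthritis the synovial lining thickens and is entered by macrophages, neutrophils and lymphocytes, whose cytokines induce matrix metalloproteinases in synovial fibroblasts and drive macrophage precursors to become osteoclasts. Osteoclasts dissolve bone by pumping acid through the vacuolar proton pump (V-ATPase) and secreting cathepsin K and tartrate-resistant acid phosphatase. In this model bone loss is followed by new bone made by osteoblasts, which lay down type I collagen and the glycoproteins that mineral binds to.

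The markers of a joint were present on every array. RMA values, which are log2 fluorescence after normalisation, were 12.01 to 12.83 for Prg4, the lubricant of the joint surface, and 10.41 to 12.44 for Ibsp, the bone sialoprotein of osteoblasts. The liver gene Alb, which a joint should lack, was at 4.88 to 6.18. Muscle, fat and epidermis markers were also present. The 14 arrays did not have the same spread of values: the SD over all genes was 1.22 to 1.46 on the control arrays and 1.28 to 1.65 on the arthritic ones, with control 2 and animal 10 (decline) the narrowest. The mean of a 38-gene skeletal muscle list was 10.13 to 10.74 in controls and 8.25 to 10.23 in arthritic joints. Arthritic arrays carry in their names one of 2 letter codes of unknown meaning and control arrays carry none, so code and disease cannot be told apart.

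Pooled over stages, 846 of 19938 genes (4.24%) were higher and 963 (4.83%) lower in arthritic joints than in controls (limma, Benjamini-Hochberg adjusted p under 0.05). Of these, 267 genes (1.34% of all) had all 11 arthritic joints above all 3 controls and 473 genes (2.37%) had all 11 below, and these are called common genes here because no stage lacked the change. Without asking for the call, all 11 joints lay above all controls for 315 genes (1.58%) and below them for 609 (3.05%). The rises were the larger changes: 91 of the 267 common rises and 53 of the 473 common falls were at least 2-fold, and 9 of the rises but 0 of the falls were at least 4-fold. The median change was 0.84 (log2) over the common rises and -0.57 over the common falls, against -0.10 over all genes. Below, a rise or fall of a gene has an adjusted p under 0.05 in this limma fit, and a change is given on the log2 scale ± its SE. In whole tissue, fewer cells of a type and less RNA per cell cannot be told apart. The counts hung on a few arrays. Without animal 10 there were 1024 common rises and 1401 common falls, without control 1 there were 859 and 1068, and without control 2 there were 102 and 177. With both of the narrowest arrays left out, an alternative chosen after the data were seen, there were 805 and 932. With the SD of each array as a covariate 18 and 26 were common, and the median change over the 267 and the 473 genes was 0.61 and -0.45, with 1172 and 1614 of all genes at an unadjusted p under 0.05. With the muscle list mean as a covariate 0 and 0 were common. The 6 arthritic joints of the first letter code gave 2509 genes higher and 2958 lower than the controls, and the 5 of the second code 9 and 2. The codes differ in stage as well. When each of the 14 arrays was left out in turn, 64 of the 267 and 79 of the 473 were common in every fit, and 52 and 63 were so under 3 other scalings of the arrays as well. Among those 52 were Ctsk, Atp6v0d2, Acp5 and Ckb, but also Arf1, whose other probe set was not called. Among those 63 were Des, Srl, Ttn, Nexn, Neb, Myh7 and Cacna1s, but also Olfr948 and Crxos, for which control 2 stood apart. Staying common in these fits therefore does not vouch for a gene.

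**Figure D1:**
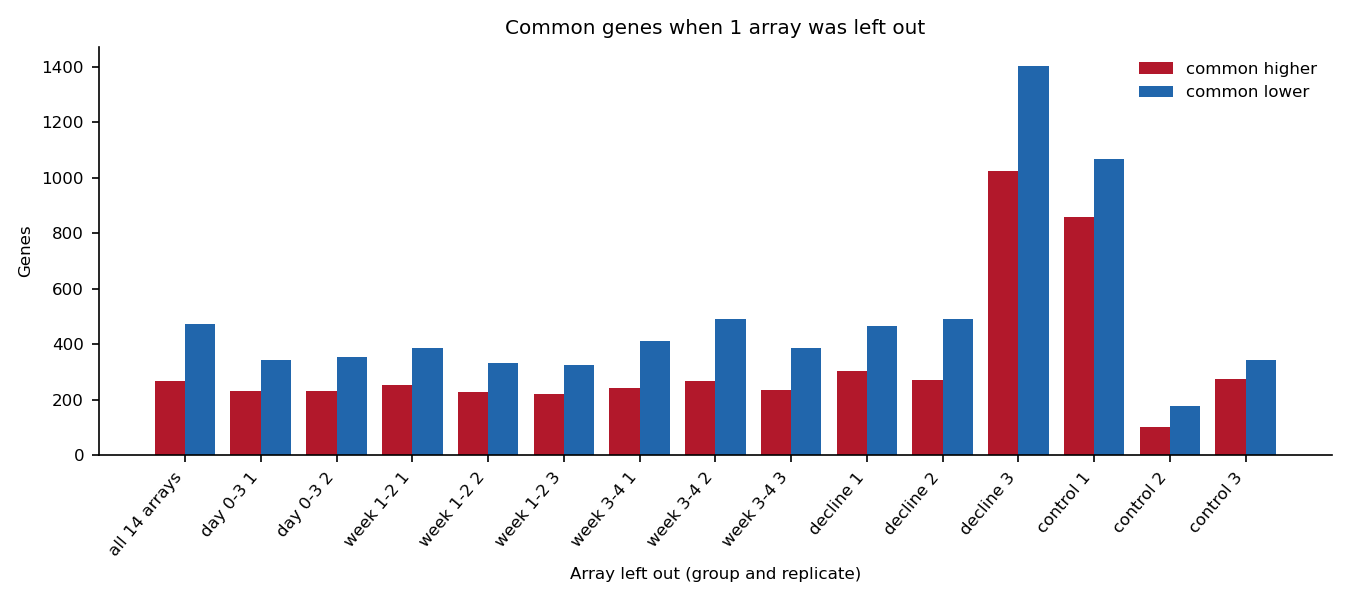
Number of common rises (red) and common falls (blue) with all 14 arrays and with 1 array left out, named by group and replicate on the horizontal axis. The counts were 267 and 473 with all arrays, rose to 1024 and 1401 without decline 3 (animal 10) and dropped to 102 and 177 without control 2.

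Mmp13, the collagenase that cleaves fibrillar type II collagen, had the largest common rise. It was at 8.75, 6.79 and 7.24 in the controls and ran from 8.76 over a median of 11.003 to 11.81 in the arthritic joints. The groups met without overlapping, because the lowest arthritic joint (animal 10) and the highest control differed by less than the spread within either group. The rise was 3.21 ± 0.52 (log2, SE; 9.27-fold, adjusted p = 0.00617, limma). Ctsk, the collagen-degrading protease of osteoclasts, was at 9.07, 6.57 and 8.01 in controls and at 9.75, 11.08 and 11.47 as the lowest, median and highest arthritic joint. It rose by 2.94 ± 0.44 (7.68-fold, adjusted p = 0.00536, limma). Among the largest falls, Des, the desmin filament of muscle cells, was at 9.49, 9.24 and 10.05 in controls and at 6.88, 7.62 and 8.20 as the lowest, median and highest arthritic joint. The change was -1.96 ± 0.26 (3.89-fold lower, adjusted p = 0.00362, limma), with more than 1 log2 unit between the groups. Myh4, the fast IIb myosin heavy chain, fell by 1.68 on the log2 scale (SE 0.46, 3.19-fold, adjusted p = 0.0363, limma), but its highest arthritic joint (11.38) lay just under its lowest control (11.40).

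**Figure D2:**
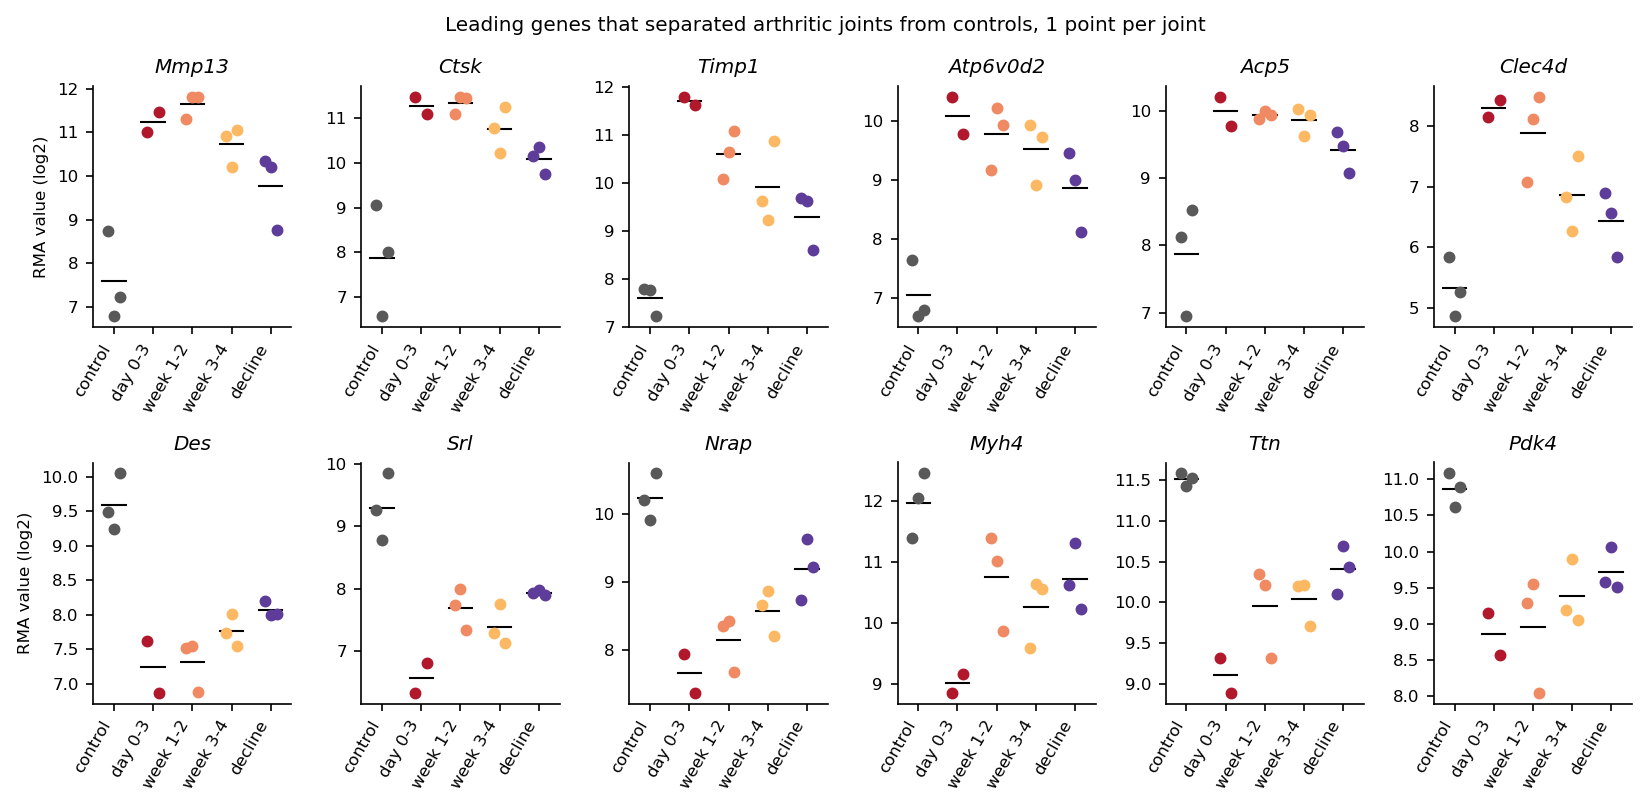
RMA value (log2, vertical axis) of 6 genes that rose (top row) and 6 that fell (bottom row), 1 point per joint, by group (horizontal axis); horizontal lines are group means and each panel has its own range, which does not start at 0. In all 12 panels no arthritic joint reached the range of the controls, and the decline joints lay on average nearer to the controls than those of day 0 to 3.

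The sequence before the start sites of these 4 genes is shown because Mmp13 and Ctsk lead the protease and osteoclast rises and Des and Myh4 stand for the muscle falls. Each run is the 250 bases before the RefSeq start site (GRCm38.p6, all on the plus strand, 5′ to 3′), at chr9:7272264-7272513 for Mmp13, chr3:95498960-95499209 for Ctsk, chr1:75360042-75360291 for Des and chr11:67237562-67237811 for Myh4. Capitals mark matches to the 8 motifs searched on both strands, which were AP-1 (TGANTCA), NF-kB (GGG, any 2 bases, TTTCC), C/EBP (TTGCNNAA), ETS (GAGGAA), RUNX (TGTGGT), the interferon response element ISRE (GAAA, any 2 bases, GAAA), MEF2 (CTA, any 4 bases, TAG) and the E-box of myogenic factors (CAGCTG).
Mmp13: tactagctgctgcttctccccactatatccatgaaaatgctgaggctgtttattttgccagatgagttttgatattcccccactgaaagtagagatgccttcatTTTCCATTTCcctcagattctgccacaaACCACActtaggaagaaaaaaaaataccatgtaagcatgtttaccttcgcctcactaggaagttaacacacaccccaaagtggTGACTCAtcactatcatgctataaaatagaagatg
Ctsk: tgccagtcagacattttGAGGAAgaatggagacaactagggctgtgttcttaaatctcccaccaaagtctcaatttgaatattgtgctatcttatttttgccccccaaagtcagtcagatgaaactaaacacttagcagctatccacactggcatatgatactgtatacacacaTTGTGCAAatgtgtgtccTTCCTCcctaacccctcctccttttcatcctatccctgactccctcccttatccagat
Des: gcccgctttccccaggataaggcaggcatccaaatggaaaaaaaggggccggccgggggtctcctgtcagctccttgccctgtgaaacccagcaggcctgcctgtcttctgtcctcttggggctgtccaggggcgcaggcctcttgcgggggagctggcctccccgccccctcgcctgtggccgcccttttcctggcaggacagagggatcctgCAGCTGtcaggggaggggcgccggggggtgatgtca
Myh4: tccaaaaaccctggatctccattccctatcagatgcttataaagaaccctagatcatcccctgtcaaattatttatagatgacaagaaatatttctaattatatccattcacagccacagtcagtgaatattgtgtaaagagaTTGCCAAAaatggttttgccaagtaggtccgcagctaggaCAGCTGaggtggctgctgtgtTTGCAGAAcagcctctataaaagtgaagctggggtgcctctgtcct
The Mmp13 sequence held an AP-1 match 35 to 29 bases before the start site, with a RUNX and an ISRE match further upstream. The Ctsk sequence held a C/EBP match and 2 ETS matches. Des and Myh4 each held 1 E-box, and Myh4 also 2 C/EBP matches. None of the matches shown overlap. Over the 253 promoters listed for 211 of the 267 common rises, 7.11% held the AP-1 letters, against 6.03% of 19116 promoters of all measured genes. ISRE letters were in 5.53% against 2.86%, C/EBP in 10.3% against 8.67% and NF-kB in 2.37% against 1.37%. Over the 458 promoters listed for 370 of the 473 common falls, MEF2 letters were in 4.37% against 3.10% of all, and in 0.791% of those of the common rises. The E-box was in 14.2% of the promoters of the falls, 10.3% of those of the rises and 12.7% of all. ETS letters (20.2% of the rises, 20.5% of the falls, 22.5% of all) and RUNX letters (12.3%, 12.7% and 11.8%) were about as frequent in each set. A promoter was listed for 79.0% of the common rises, 78.2% of the common falls and 78.1% of all genes, and some genes had several. Genes without a listed promoter are left out, so these shares describe the listed promoters only, and they were not tested. The median GC content was 58.4% for the rises, 54.4% for the falls and 56.8% for all, and the shares take no account of it. A match is not a binding site.

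Matrix proteases and their inhibitors held some of the largest rises: 6 of 25 measured rose (24.0%, against 4.24% of all genes) and 1 fell, with 4 of the rises and the fall common to all joints. Timp1, the secreted inhibitor of metalloproteinases that inflammatory cytokines induce, was at 7.79, 7.76 and 7.23 in controls and at 8.59, 10.09 and 11.79 as the lowest, median and highest arthritic joint. Every arthritic joint lay more than 0.5 above the highest control, and the rise was 2.67 ± 0.54 (6.34-fold). Mmp9, the gelatinase of osteoclasts and neutrophils, rose by 1.65 ± 0.31 and Mmp14, a membrane-bound activator of other metalloproteinases, by 1.09 ± 0.20, both in all 11 joints. Mmp3, stromelysin 1, rose by 2.87 ± 0.70, yet animal 10 (7.92) lay below control 1 (8.44), so that the rise was not common to every joint. Mmp2, gelatinase A, rose by 1.47 ± 0.33, also with overlap. Timp4, an inhibitor found mainly in muscle and heart, moved the other way, from 7.72, 7.16 and 7.10 in controls to 5.62 to 6.84 in arthritis (change -1.01 ± 0.26, adjusted p = 0.0307, limma).

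Osteoclast genes changed as a small set with clear separation. Of 23 measured, 4 rose (17.4%) and 0 fell, and all 4 were common. Atp6v0d2, the osteoclast form of a V-ATPase subunit, was at 7.63, 6.69 and 6.79 in controls and at 8.12, 9.72 and 10.40 as the lowest, median and highest arthritic joint (rise 2.47 ± 0.37, 5.55-fold). Acp5, tartrate-resistant acid phosphatase, was at 8.12, 6.95 and 8.53 in controls and at 9.08, 9.87 and 10.20 in arthritis (rise 1.92 ± 0.26, 3.77-fold). Ckb, the brain-type creatine kinase that osteoclasts use for energy, was at 8.34, 7.52 and 8.24 in controls and at 8.60, 9.27 and 9.58 in arthritis (rise 1.19 ± 0.19). No arthritic joint, decline included, was at the level of a control for these genes. The other 19 members did not pass the test, and the median over the list was 0.24. With the SD of an array as a covariate, which left 18 common rises of 267, these 4 osteoclast genes were still called, with changes of 1.92 (Ctsk), 1.64 (Atp6v0d2), 1.33 (Acp5) and 0.71 (Ckb). Mmp13 and Timp1 were not called in that fit, at changes of 2.03 and 1.81, both above those of Atp6v0d2, Acp5 and Ckb. Of the 15 shared V-ATPase subunits measured, 6 rose (40.0%) and 0 fell (median 0.97). With the SD of an array as a covariate 1 of the 15 was called, and the median was 0.16. Atp6v1b2, an ATP-binding subunit of the pump, rose by 1.58 ± 0.27 and Atp6v0d1, the widely expressed counterpart of Atp6v0d2, by 1.02 ± 0.22, both in all joints. Among cathepsins and lysosomal enzymes 5 of 20 rose and 0 fell (median 0.69), while with that covariate 0 were called (median 0.11). The common ones were Hexa, the hexosaminidase alpha subunit (0.97 ± 0.18), and Ctsz, cathepsin Z (0.83 ± 0.16). Ctsh (1.45 ± 0.37) and Ctss (1.26 ± 0.32), cathepsins of antigen-presenting cells, rose with overlap.

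Few genes of inflammatory cells were changed in every joint. Of 32 macrophage and myeloid receptor genes, 6 rose and 1 fell, and the common rises were Clec4d, a C-type lectin receptor (1.96 ± 0.49), and Fcgr1, the high-affinity IgG receptor (0.73 ± 0.18). Ms4a7 (1.89 ± 0.34) and the scavenger receptor Msr1 (1.72 ± 0.51) rose without full separation, and Cd163, the haemoglobin scavenger receptor of resident macrophages, fell by 0.87 on the log2 scale (SE 0.21). The other 25 members did not pass the test, but at limma's unadjusted p under 0.05 17 of the 32 were higher and 2 lower. The median over this list was 0.81, and 0.24 with 0 calls when the SD of an array was a covariate. Of 38 cytokines and chemokines 3 rose and 0 fell. These were the monocyte chemokine Ccl12 (2.13 ± 0.41), Cxcl16 (0.92 ± 0.26) and Ccl9 (0.77 ± 0.19), and only Ccl9 separated all joints. Of 25 cytokine and chemokine receptors 1 rose (4.00%, near the 4.24% of all genes), Lifr (0.72 ± 0.22). The median over these receptors was 0.50, and 6 were higher at limma's unadjusted p under 0.05. Saa3, an acute phase protein made in inflamed tissue, had a larger mean rise than any common gene (3.37 ± 0.98, adjusted p = 0.0446, limma) but was at 6.79 in animal 10 and 8.22 in control 1, and ran up to 12.20. Of 17 acute phase and prostaglandin genes it and Pla2g7 (0.80 ± 0.24) rose. Limma called 0 of 20 neutrophil genes (median 0.06), of which 2 were higher at an unadjusted p under 0.05. It called 0 of 16 B cell genes (median -0.16), of which 2 were lower at that threshold. In the T cell list 1 of 15 rose (6.67%, near the 4.24% of all genes), Cd3g, a chain of the CD3 complex (1.09 ± 0.30).

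Interferon-induced genes included some that were raised in every joint. Of 24 measured 5 rose and 1 fell. Ifit3, an antiviral effector, was at 8.26, 7.50 and 7.38 in controls and ran from 8.44 to 10.28 in arthritis (rise 1.65 ± 0.33). Rtp4, a chaperone induced by interferon, rose by 1.64 ± 0.31 and Irgm1, an immunity-related GTPase, by 0.69 ± 0.17. These 3 were common to all joints, and Ifit2 and Gbp3 rose with overlap. Oasl1, a relative of the oligoadenylate synthetases, moved down in every joint (-0.58 ± 0.13). In antigen presentation 2 of 16 rose. Cd74, the invariant chain of class II molecules, rose by 1.12 ± 0.19 in every joint and H2-Ab1, a class II beta chain, by 1.38 ± 0.37 with overlap. Of 16 complement genes 1 was called lower (6.25%, near the 4.83% of all genes), the terminal component C7. It was at 8.08, 7.96 and 7.94 in controls and at 6.04 to 7.43 in arthritis (change -1.30 ± 0.26). Among 10 mast cell genes, the IgE receptor chains moved in opposite directions: the alpha chain Fcer1a rose by 0.76 ± 0.17 and the beta chain Ms4a2 moved by -0.71 ± 0.11, each in all 11 joints, although Ms4a2 (-0.47) was not called with each array set to the same median and SD. Both were dim, Fcer1a at 4.73 to 5.14 in controls and Ms4a2 at 4.71 to 5.04, against 3.96 to 4.43 in arthritis. Among all genes with a mean of 4 to 6, 432 were called lower and 18 higher, so the opposite directions are uncertain. The tryptase Tpsab1 was also lower (-0.41 ± 0.12). In the erythroid list Epor, the erythropoietin receptor, was the 1 of 14 called (7.14%, near the 4.83% of all genes), at -0.38 ± 0.11.

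A minority of the matrix genes rose, and few of them separated every joint from every control. Of 30 collagen chains 10 rose and 0 fell, led by Col12a1 (1.57 ± 0.40) and the fibrillar chains Col1a2 (0.94 ± 0.19), Col1a1 (0.90 ± 0.21) and Col3a1 (0.89 ± 0.19), and of these 10 the basement membrane collagen Col15a1 (0.31 ± 0.09) alone was common. With each array set to the same median and SD, 3 collagen chains were called. Of 25 collagen-processing genes 4 rose, among them Plod2, a lysyl hydroxylase (1.63 ± 0.44), and Fkbp14, a chaperone of procollagen (1.11 ± 0.30). Of 28 proteoglycans and matricellular proteins 8 rose and 0 fell. Postn, periostin, rose by 2.44 ± 0.61, Cthrc1 by 1.75 ± 0.46 and the keratan sulphate proteoglycan Lum by 1.41 ± 0.32, all with overlap, since control 1 was at 10.42 for Postn and animal 10 at 9.18. Sparc, the collagen-binding osteonectin, rose in all joints by 1.02 ± 0.18, from 12.26, 11.58 and 11.49 in controls to 12.30 to 13.10, as did the thrombospondin Thbs4 (0.79 ± 0.15). Several of these calls were lost with each array set to the same median and SD, where Sparc changed by 0.36, Thbs4 by 0.30, Col15a1 by 0.20, Col1a2 by 0.54 and Col1a1 by 0.51. Among 18 osteoblast and osteocyte genes 3 rose and 1 fell. Ibsp was at 11.23, 10.41 and 10.53 in controls and at 11.67, 11.91 and 12.44 as the lowest, median and highest arthritic joint (rise 1.25 ± 0.18, adjusted p = 0.00536, limma), with the 2 joints of day 0 to 3 at 11.67 and 11.90. With each array set to the same median and SD its change was 0.73 and just missed the call. Mgp, an inhibitor of mineralisation, and Cdh11, the cadherin of osteoblasts and synovial fibroblasts, rose by 1.24 ± 0.29 and 1.23 ± 0.30 with overlap, and Sost, the osteocyte antagonist of WNT signalling, moved by -0.55 ± 0.16. Of 10 tendon genes 4 rose, with Kera, keratocan, at 2.16 ± 0.49 and Tnmd, tenomodulin, at 1.66 ± 0.40. In cartilage 2 of 25 rose, Hapln1, the link protein of aggrecan (0.94 ± 0.25), and Col11a1 (0.62 ± 0.16). Fap, a surface protease of activated fibroblasts (1.34 ± 0.30), and Ugdh, an enzyme of hyaluronan precursor synthesis (0.77 ± 0.22), rose in the synovial fibroblast list of 18. Clic5, a chloride intracellular channel protein used as a marker of lining fibroblasts, was lower in all joints (-1.09 ± 0.21). It was the 1 of 18 called lower in that list (5.56%, near the 4.83% of all genes).

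Bone signalling pathways gave few calls. In the BMP, activin and TGF-beta list of 39 genes limma called 0 higher and 1 lower, the inhibitory Smad6 (-0.55 ± 0.15). That is 2.56%, under the 4.83% of all genes, while at an unadjusted p under 0.05 there were 10 higher and 3 lower. In the WNT list of 33 genes Sfrp2, a secreted antagonist, rose (1.33 ± 0.33), and Ndrg2, which muscle also expresses (-1.51 ± 0.31, in every joint), Sost and Wnt11 (-0.36 ± 0.11) were lower. The shares were 3.03% higher, under the 4.24% of all genes, and 9.09% lower, against 4.83%. In the IGF list of 17, the binding protein Igfbp4 rose (0.78 ± 0.23) and Stc2, stanniocalcin 2, was lower in every joint (-0.46 ± 0.11). Each is 5.88% of the list, near the 4.24% higher and 4.83% lower of all genes.

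**Figure D3:**
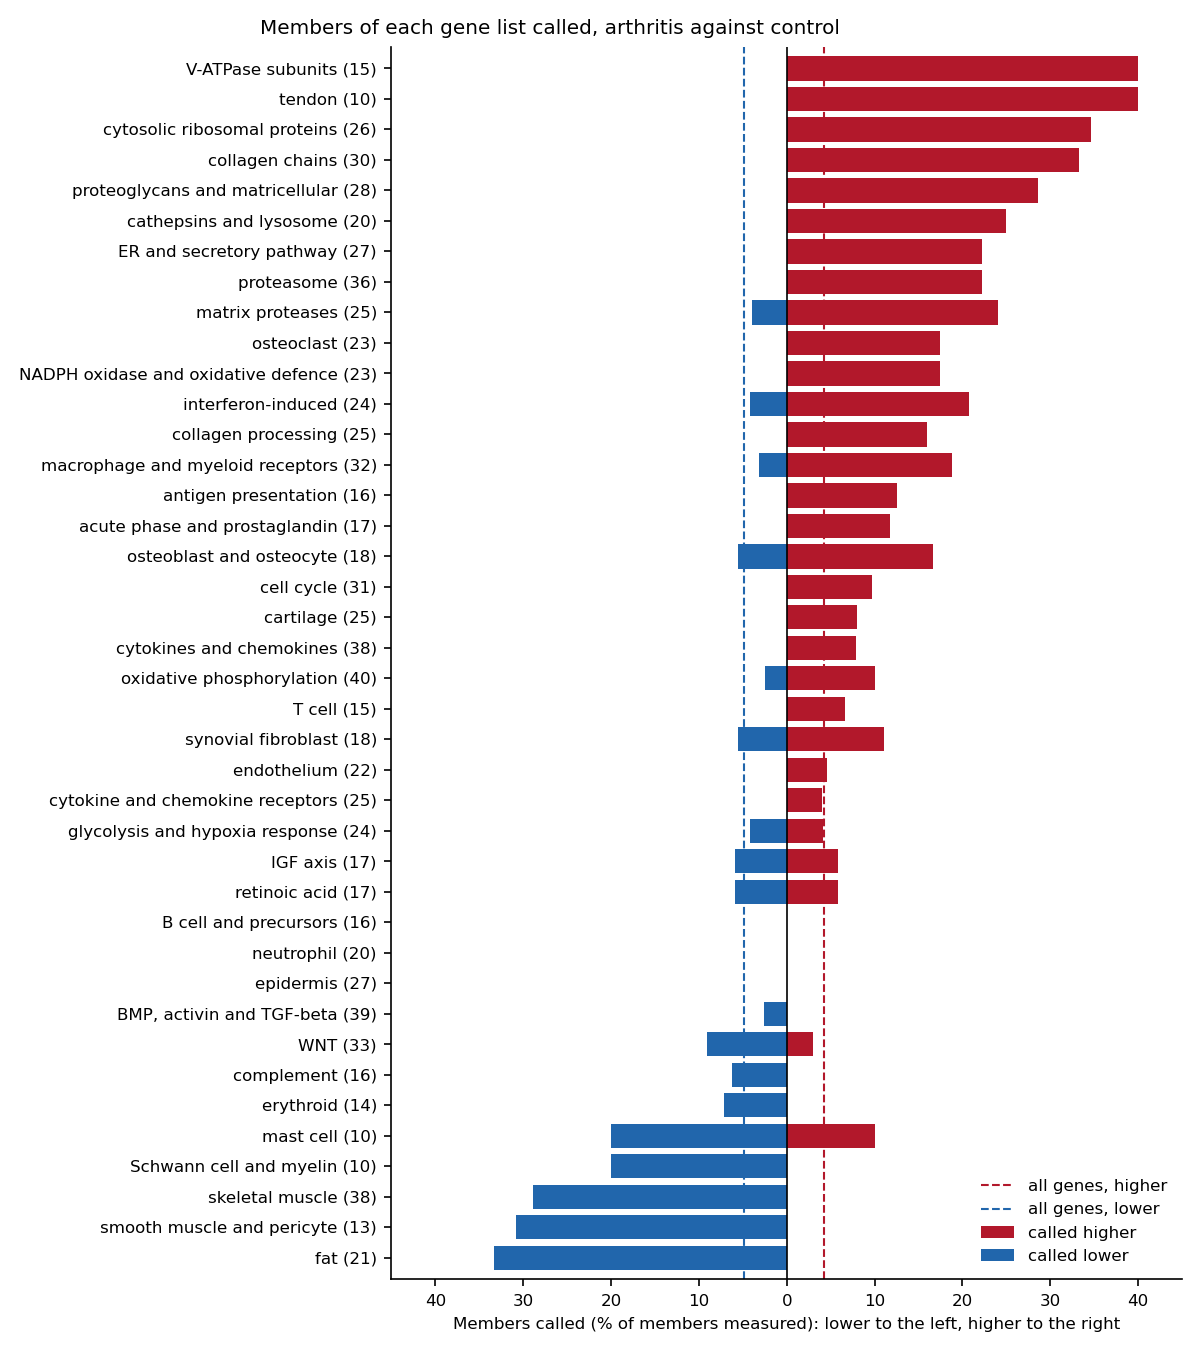
Share of the measured members of 40 gene lists (number measured in brackets) called higher (right, red) or lower (left, blue) in arthritis by limma, in percent; dashed lines mark the shares over all genes, 4.24% and 4.83%. V-ATPase, tendon and ribosomal protein lists reached furthest to the right, fat, smooth muscle and skeletal muscle lists furthest to the left, and 3 lists had no call.

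Genes of protein synthesis, secretion and breakdown rose in each of 3 lists. Of 26 cytosolic ribosomal protein genes 9 rose and 0 fell (median 0.68), with Rpl7 (1.65 ± 0.32) and Rpl19 (1.35 ± 0.30) among the 4 that separated. All 7 probe sets of Rpl19 and 4 of Rpl7 moved the same way, although ribosomal genes have many processed copies that could share signal. Of 27 genes of the endoplasmic reticulum and secretory pathway 6 rose and 0 fell, among them Sec61b, of the protein translocation channel (1.69 ± 0.33), the chaperone Hsp90b1 (1.28 ± 0.30) and Pdia4, a protein disulphide isomerase (0.85 ± 0.21, in all joints, but with a second probe set at -0.40 that was not called). Other probe sets of Sec61b changed by 1.125 and 0.851, and the latter was not called. Of 36 proteasome genes 8 rose and 0 fell. Psmd14, a deubiquitinase of the proteasome lid, rose in all joints by 1.19 ± 0.15, as did the ATPase Psmc5 (0.88 ± 0.16). With each array set to the same median and SD, the ribosomal list had 5 calls and a median of 0.12, the secretory list 4 and 0.48, and the proteasome list 5 and 0.32. Other leading common rises were single genes. Polr2h, a subunit shared by RNA polymerases, rose by 2.44 ± 0.48, but a second probe set of it changed by 0.33 and was not called (adjusted p = 0.43, limma), so its rise is uncertain. The Golgi GTPase Arf1 rose by 1.86 ± 0.28 on one probe set, while the other changed by 0.11 (adjusted p = 0.653, limma), and is uncertain as well. Eef1b2, a translation elongation factor, rose by 2.27 ± 0.49, Snord104, a small nucleolar RNA, by 2.24 ± 0.30, Ppp1r11, an inhibitor of protein phosphatase 1, by 2.17 ± 0.41 and Lsm5, of the U6 snRNP, by 1.95 ± 0.31. Other probe sets of Lsm5 changed by 1.702 and 1.061, and the latter was not called. Rps3a1, a protein of the small ribosomal subunit, rose by 1.87 ± 0.31. Slitrk6, a neuronal transmembrane protein, was at 4.26, 4.39 and 4.61 in controls and ran from 5.10 to 7.75 in arthritis (rise 2.09 ± 0.40), and Fabp7, the brain-type fatty acid-binding protein, was at 5.55, 5.57 and 5.54 in controls and ran from 6.13 to 8.50 (rise 1.84 ± 0.36). Both thus rose above a tight control group. Gpx8, a peroxidase of the endoplasmic reticulum (1.60 ± 0.28), led the 4 of 23 oxidative defence genes that rose. Angpt2, the angiopoietin of remodelling vessels, was the 1 of 22 endothelial genes called and rose in all joints (0.86 ± 0.19). That share, 4.55%, is near the 4.24% of all genes. In the cell cycle list 3 of 31 rose: Pcna (1.13 ± 0.25), Cdk6 (0.99 ± 0.27) and the mitotic kinesin Kif11 (0.74 ± 0.20, in all joints). In the retinoic acid list of 17, Dhrs3, a retinal reductase, rose (0.72 ± 0.17) and Stra6, the retinol transporter, was lower (-0.48 ± 0.14). Each is 5.88% of that list, near the shares over all genes.

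The common falls were led by striated muscle. Of 38 skeletal muscle genes 0 rose and 11 fell (28.9%, against 4.83% of all genes), 9 of them in all 11 joints, and the median over the list was -1.06. Ttn, the giant elastic protein titin, was at 11.58, 11.43 and 11.52 in controls and at 8.90, 10.20 and 10.69 as the lowest, median and highest arthritic joint (change -1.56 ± 0.30, 2.94-fold lower). Srl, sarcalumenin of the sarcoplasmic reticulum, changed by -1.83 ± 0.32, Nrap, which anchors actin in forming myofibrils, by -1.78 ± 0.36, and Nexn, nexilin of the Z-disc, by -1.53 ± 0.32. Txlnb (-1.68 ± 0.40) and Cmya5, myospryn (-1.50 ± 0.29), are muscle proteins as well. Ryr1, the calcium release channel (-1.41 ± 0.28), Neb, nebulin (-1.36 ± 0.25), Myh7, the slow myosin (-1.30 ± 0.21), Myh2, the IIa myosin (-1.24 ± 0.27), and Cacna1s, the calcium channel of the T-tubule (-1.13 ± 0.21), fell in every joint. Mylk4 had the largest mean fall of the list (-2.62 ± 0.56), but animal 21 (8.73) lay above control 1 (8.40). Enzymes of muscle metabolism moved with them: Pdk4, which shuts down pyruvate oxidation, was at 11.08, 10.62 and 10.89 in controls and at 8.05 to 10.06 in arthritis (-1.60 ± 0.31), Ppp1r3a, the glycogen-targeting subunit of protein phosphatase 1 in muscle, changed by -1.53 ± 0.41, and Cox6a2, the muscle form of a cytochrome oxidase subunit, by -1.48 ± 0.36. By contrast, Ndufb5, Ndufb6, Ndufb9 and Cox6b1, respiratory subunits of all tissues, rose by 0.67 to 1.25 among 40 oxidative phosphorylation genes, but with each array set to the same median and SD 0 of the 40 rose and 4 fell, and the change of Cox6b1 was -0.06. In the glycolysis and hypoxia list of 24, Aldoa, the muscle aldolase, was lower (-1.05 ± 0.24) and Hif1a, the hypoxia-inducible factor, higher (1.32 ± 0.39). Each is 4.17% of the list, near the 4.83% lower and 4.24% higher of all genes. With each array set to the same median and SD, 8 of the 24 members fell and 0 rose. Ube2d1, a ubiquitin-conjugating enzyme, changed by -1.49 ± 0.26, from 9.84, 10.05 and 10.26 in controls to 8.06 to 9.68.

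The muscle list as a whole was lower in 10 of the 11 arthritic joints than in any control. Animal 21 was the exception. It had a mean over the muscle list of 10.23, above controls 1 (10.18) and 2 (10.13), while its Des was 7.998 against at least 9.24 in controls and its Ttn 10.69 against at least 11.43. With the muscle mean as a covariate limma called 0 genes higher and 0 lower (smallest adjusted p 0.0543; 1304 and 2109 at an unadjusted p under 0.05). The median change in that fit was 0.78 over the common rises and -0.54 over the common falls, against 0.84 and -0.57 without the covariate, and 0.04 over the muscle list itself. Muscle calls grew under some scalings of the arrays but not under others. With each array set to the same median and SD 24 of the 38 genes fell (median -1.42), and with a second quantile normalisation 23 (median -1.36). With arrays centred on their medians 11 fell (median -1.01), as in the values as deposited. With the SD of an array as a covariate 1 was called lower, at a median of -0.99.

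Fat, smooth muscle and nerve genes were lower too. Of 21 fat genes 0 rose and 7 fell (33.3%, median -0.46), 5 of them in all joints. Adipoq, adiponectin, was at 10.81, 11.20 and 10.88 in controls and at 9.67 to 10.53 in arthritis (-0.92 ± 0.19). Retn, resistin (-0.95 ± 0.17), Lipe, hormone-sensitive lipase (-0.84 ± 0.19), Lpl, lipoprotein lipase (-0.77 ± 0.23), and Pck1 (-0.45 ± 0.12) also separated. Retnla, a resistin-like protein of alternatively activated macrophages and fat, was at 8.60, 9.17 and 9.83 in controls and ran from 5.87 to 8.50 in arthritis (-1.70 ± 0.45). Of 13 smooth muscle and pericyte genes 0 rose and 4 fell, Des among them, with Actg2, smooth muscle gamma-actin, at -0.74 ± 0.14. Of 10 Schwann cell genes 2 fell, Mbp, the myelin basic protein (-0.79 ± 0.18, in all joints), and Cdh19 (-0.58 ± 0.15), which was at -0.26 and not called with each array set to the same median and SD.

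Genes that a joint is not known to use were also among the falls. Of 1027 odorant receptor genes measured 83 (8.08%) were called lower, against 4.83% of all genes, and 0 higher, while 30 (2.92%) were common falls, near the 2.37% of all genes. Of 167 vomeronasal receptor genes 19 (11.4%) were called lower and 11 (6.59%) were common falls. Their mean values were 4.28 to 5.06 in arthritis and 4.64 to 5.25 in controls for the odorant receptors, and 3.73 to 4.54 and 4.13 to 4.57 for the vomeronasal ones. Olfr948 changed by -1.50 ± 0.28, but its controls were at 3.38, 5.34 and 3.43 and its arthritic joints at 2.40 to 2.79, so that control 2 stood apart from both other controls. Crxos, a transcript on the strand opposite the photoreceptor gene Crx, behaved alike, with controls at 6.01, 8.06 and 6.69 and arthritic joints at 5.03 to 5.74. Direction went with the level of a gene. Among 898 genes with a mean under 4, 104 were called lower and 0 higher, and the median change was -0.31. Among 356 genes with a mean of 10 or more, 96 were called higher and 10 lower, and the median change was 0.51. With each array set to the same median and SD, the median change was 0.09 under 4 and 0.03 at 10 and over, and the calls were 9 lower and 17 higher under 4. The arthritic arrays had the wider spread of values, and how far that spread set these falls was not tested.

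**Figure D4:**
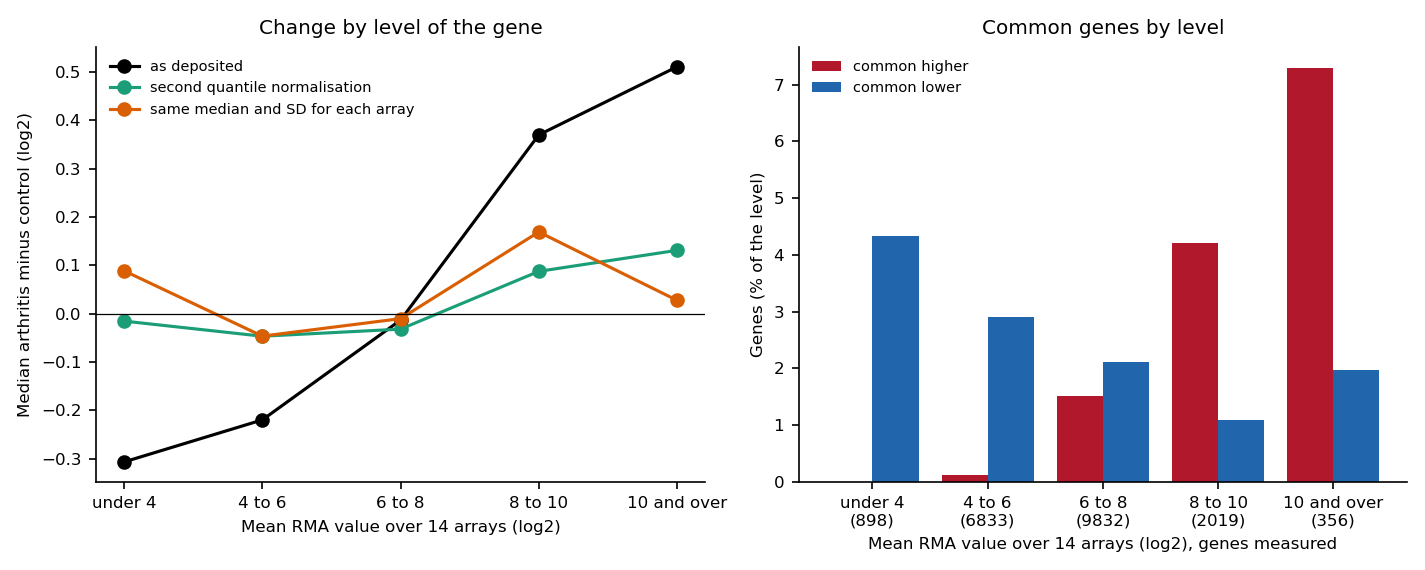
Left, median change of arthritis against control (log2) for genes grouped by their mean RMA value over 14 arrays (log2), for the values as deposited and 2 other scalings; right, share of the genes of each level (number in brackets) that were common rises (red) or common falls (blue). As deposited, the median ran from -0.31 for the dimmest genes to 0.51 for the brightest, and with the other scalings it stayed between -0.05 and 0.17.

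The common changes, present at each stage by definition, were smallest in decline. The median over the 267 common rises was 0.96, 0.90, 0.86 and 0.70 in the 4 stages taken in order, and over the 473 common falls it was -0.62, -0.62, -0.57 and -0.48. The stages share the 3 controls, so these values are not independent of each other. Stage also goes largely with letter code, and the part of each was not tested. Decline had the smallest rise of the 4 stages for 182 of the 267 genes and the smallest fall for 289 of the 473. Animal 10, of decline, was the arthritic joint nearest to control for 136 of the rises and 176 of the falls. Control 1 was the control nearest to arthritis for 138 and 217. Against control on its own, limma called 890 genes higher (4.46%) and 669 lower (3.36%) for the earliest stage, which had 2 joints. The next stage had 1079 (5.41%) and 926 (4.64%) and that of week 3 to 4 had 191 (0.958%) and 118 (0.592%). For decline limma called 0 in either direction, and 1113 and 1287 genes had an unadjusted p under 0.05.

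Whether the size of a change depended on stage was tested among the 11 arthritic joints alone, by limma's F test of the 4 stage means, which called 191 of 19938 genes (0.958%). Letter code, which goes largely with stage, was not part of that fit. Of the common genes 10 passed, 4 rises and 6 falls. Mmp13 was higher than control by 3.64, 4.04, 3.13 and 2.18 (log2) from day 0 to 3 to decline, and Ctsk by 3.39, 3.45, 2.87 and 2.20, but neither difference among stages passed the test (adjusted p = 0.0983 and 0.0767, limma). Acp5 (2.12, 2.07, 2.00 and 1.54) and Snord104 (2.38, 2.20, 2.39 and 2.03) had rises of like size at each stage (adjusted p = 0.339 and 0.887, limma), which does not show that they were equal. Among the common genes the stages differed most clearly for Rgs2, a regulator of G protein signalling, which was at 9.42 and 9.55 in the earliest joints and at 9.37 to 9.52 in the next stage. It was at 8.88 to 9.30 in week 3 to 4 and at 8.01 to 8.26 in decline, against 7.20 to 7.89 in controls (adjusted p = 0.0150, limma). Decline joints thus lay just above the controls and below all other arthritic joints. Polr2h (3.35, 3.09, 2.08 and 1.56, adjusted p = 0.0335, limma) and Tceal8 (1.16, 1.33, 0.75 and 0.26, adjusted p = 0.0407, limma) also had their smallest rise in decline. Pfkm, the muscle phosphofructokinase, was lower than control by 2.59, 1.67, 1.28 and 0.73 from day 0 to 3 to decline (adjusted p = 0.0424, limma), and Mss51, a mitochondrial protein of muscle, by 2.48, 1.56, 1.03 and 0.77 (adjusted p = 0.0349, limma). In the skeletal muscle list 9 of 38 genes differed among stages.

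**Figure D5:**
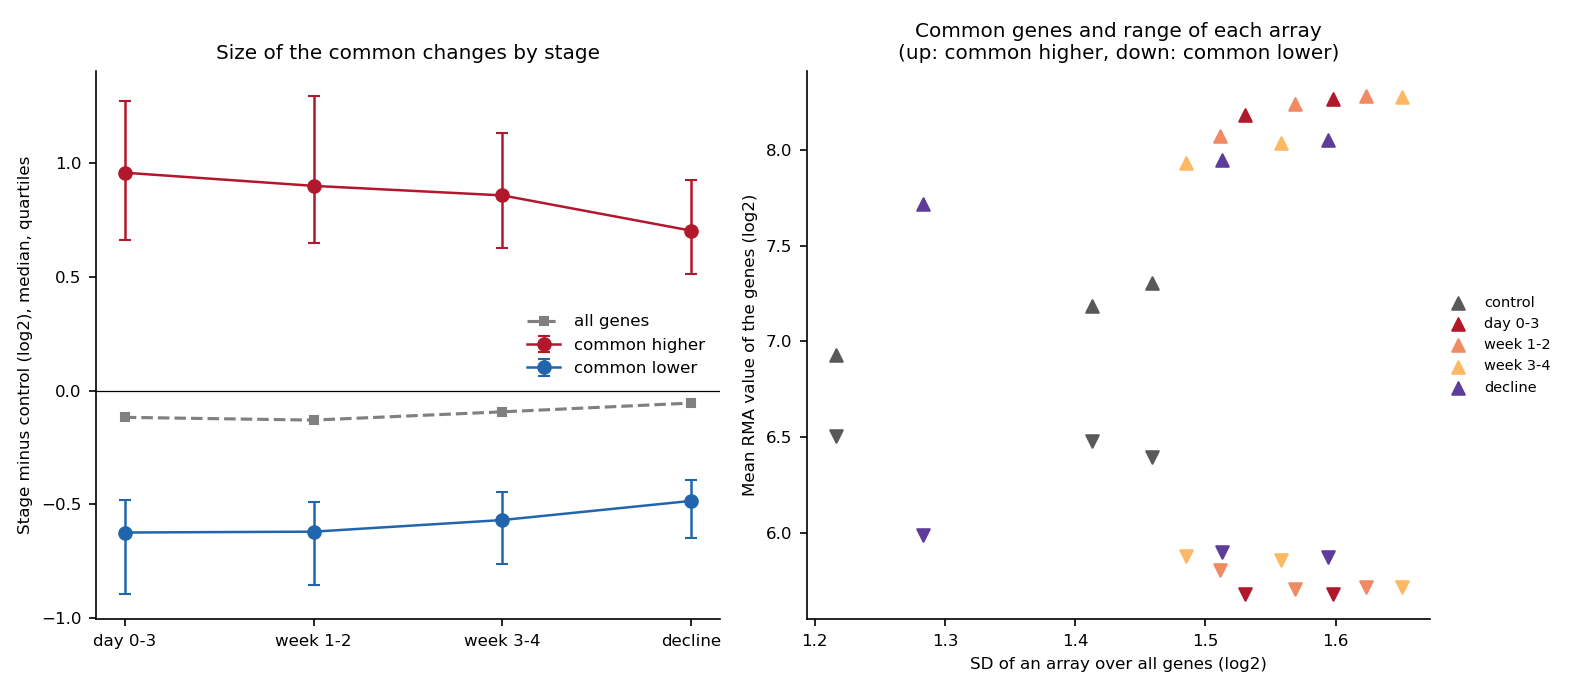
Left, median and quartiles over genes of the change of each stage against control (log2) for the 267 common rises, the 473 common falls and all genes; right, mean RMA value (log2) of the common rises (upward triangles) and common falls (downward triangles) on each of the 14 arrays, against the SD of that array over all genes. The common changes were smallest in decline, at 0.70 and -0.48, and the control arrays lay at SDs of 1.22 to 1.46, apart from most arthritic arrays.

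Epidermis genes show what was not common to the arthritic joints. Limma called 0 of 27 between arthritis and control, with 0 at an unadjusted p under 0.05, and 13 of the 27 differed among stages. The mean over the list was 5.95 and 5.96 in the earliest joints and 5.98 to 6.34 in the next stage. In week 3 to 4 it was 6.63 in animal 54, of the first letter code, and 9.38 and 9.30 in animals 29 and 60, of the second. It was 9.03 to 10.02 in decline, all of the second code, against 6.45 to 8.68 in controls. All joints of the first code thus lay below all of the second, and the break fell inside week 3 to 4. The part of stage and of code in this was not tested. The skin had been removed at dissection, and the part of residual skin in other results was not tested; with the epidermis mean as a covariate there were 291 common rises and 524 common falls.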

How the data were processed

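Whole tarsal joints were measured 1 per array. RNA was isolated with mirVana, amplified by NuGEN Pico chemistry and hybridised to the Mouse Gene 1.0 ST array of Affymetrix, which has 1 colour. The series table holds RMA values on a log2 scale, which the authors made in R 2.15 with affy, per the submitters' processing notes. RMA subtracts a modelled background, makes the probe distributions of the arrays equal and fits 1 value per probe set, so only relative levels of a probe set between arrays can be read. The sources used here do not say whether 14 or 15 arrays were normalised together.

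The table has 35556 probe sets. The platform annotation gives 1 gene for 21789 of them (21698 with a matching current gene identifier), several for 1621 and none for 12146, and only the first kind was kept. Where a gene had more than 1 probe set (999 genes), that of highest mean over the 14 arrays stood for it, giving 19938 genes. Means of arthritis (n = 11) and control (n = 3) were fitted in limma 3.58.1 with R 4.3.3 (lmFit, eBayes). Calls were made at 0.05 after Benjamini-Hochberg adjustment across the 19938 genes. A common gene was called and had no overlap between the groups. Stages were compared by a moderated F test among the 11 arthritic arrays, and each stage with control in a fit of 5 group means. Replicates are separate animals, so p-values measure the spread between joints of different mice. The calculation was tested on simulated data of 19938 genes, in which 98 of 100 genes changed 4-fold and 76 of 100 changed 2-fold were called, with 4 false calls. Noise was drawn independently for each gene and array, without the unequal spread of the real arrays. These rates therefore check the calculation and do not carry over to the data. Arrays have no read depth: their number limits the precision.

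Named are the 15 largest common rises and falls, up to 4 members of each list with the largest absolute log2 change, the 5 common genes with the smallest p among stages, and genes behind a count of 5 or fewer or a discordant second probe set. Other called members of the lists, with Olfr948 and Crxos as examples of dim genes, were picked after their values were seen. The gene set, lists, motifs and tests were chosen with earlier results of these data known. Promoters are RefSeq's of GRCm38.p6. Alternatives were other sets of arrays, moderations, weights, scalings, covariates, filters at 4 and 6, thresholds and probe set rules. Plots and tables were made in Python 3.11.15 (matplotlib 3.10.9).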

Additional observations from a re-analysis of the deposited data

Results flagged for a closer look

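For 10 of the genes named the 4 stages differed among the arthritic joints by limma's F test (Benjamini-Hochberg adjusted over 19938 genes). Of the common rises these were Rgs2 (adjusted p = 0.0150), Polr2h (0.0335) and Tceal8 (0.0407), and of the common falls Mss51 (0.0349), Pfkm (0.0424), Ndrg2 (0.0435) and Retnla (0.0494). Matrix genes that rose with overlap between the groups were also among them, namely Col12a1 (0.0293), Lum (0.0321) and Postn (0.0327). All 7 of the common genes had their smallest change from control in decline. The largest change lay at day 0 to 3 for Rgs2 (1.85), Polr2h (3.35), Postn (3.30), Mss51 (-2.48), Pfkm (-2.59), Ndrg2 (-2.38) and Retnla (-3.15), and in week 1 to 2 for Tceal8 (1.33), Lum (1.92) and Col12a1. Limma called no gene in this test without either joint of day 0 to 3 (1924 and 1996 at an unadjusted p under 0.05) or without moderation (2279).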

How the results depend on the processing

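The named changes kept their direction with 1 exception, while the number of calls varied widely. All the named genes had been called in the pooled comparison, and the alternatives reuse its arrays. Their kept direction is therefore no independent support. Over 151 named genes and 35 alternatives, 3696 of 5280 values kept direction and call, 1583 kept the direction without the call, and 1 reversed: Cox6b1, at -0.056 with each array set to the same median and SD, a scaling under which 31 others lost the call. Counts below are genes higher, lower, common higher and common lower, against 846, 963, 267 and 473. With all 15 arrays they were 23, 86, 17 and 74. With a stage left out the counts that moved by over 1.5 times were 297 higher, 278 lower and 240 common lower without day 0 to 3. Without week 1 to 2 the 4 counts were 72, 54, 69 and 54, without week 3 to 4 they were 179, 180, 150 and 173, and without decline 2477, 3001, 1411 and 1769. Arthritic arrays of the first letter code alone gave 2509, 2958, 1872 and 2289, and those of the second code 9, 2, 9 and 2. With the SD of an array as a covariate the counts were 23, 50, 18 and 26, and with the muscle mean they were 0, 0, 0 and 0 (1304 and 2109 at limma's unadjusted p under 0.05). With the epidermis mean 1533 were higher and 1707 lower. A fold of at least 2 with the adjusted p gave 314, 76, 91 and 53, and with the unadjusted p under 0.05 it gave 455, 116, 91 and 57. The mean of the stages gave 1303 higher, limma without moderation 481 higher, array weights 314 common lower, and a filter at a mean of 6 gave 310 common lower. Leaving out the 2 narrowest arrays, chosen after the data were seen, gave 805 common higher and 932 common lower. With 1 array left out, the ranges were 107 to 2370 higher, 180 to 3095 lower, 102 to 1024 common higher, 177 to 1401 common lower and 0 to 347 genes that differed among stages. That last count, 191, was 2 with all 15 arrays, 0 without moderation, 1609 with array weights, 101 with arrays centred and 338 after a second quantile normalisation.

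The 3 controls limit every comparison with control, though not the test among stages, and only relative values within an array set can be read. Dim genes lie near background, where a fall has no clear floor. No paired analysis was possible because replicate numbers only name the joints, each from a different animal, and tie no arthritic joint to a control.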

Other observations

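The array of animal 57 (day 0 to 3), which failed the authors' quality control and enters no comparison above, had the narrowest spread of all 15 arrays, an SD over genes of 1.08. Its mean over the 267 common rises was 6.81, below the 6.93 to 7.31 of the controls and the 7.72 to 8.28 of the other arthritic joints. Its mean over the 473 common falls was 6.24, lower than in any control, between the 5.68 to 5.99 of the arthritic joints and the 6.39 to 6.51 of the controls. Mmp13 was at 6.51 and Ctsk at 6.24 on it, both under the lowest control, while Des was at 7.20 and Ttn at 9.81, inside the arthritic range.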
